A study of Homo sapiens with 16 samples.

Results

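The genes described here are 9 genes of plasminogen activation and coagulation, PLAU, PLAUR, SERPINB2, SERPINA1, F3, TFPI, TFPI2, THBD and F13A1. They were chosen by name, for the roles of their products, from the 60676 genes of the count table. Earlier results of these data were known when they were chosen. All 9 were among the 16503 genes that passed the filter on low counts. The cells were THP-1, a human line from an acute monocytic leukemia, carrying a stable lentiviral short hairpin under puromycin selection. The study asked how the DNA methylation factors UHRF1, DNMT1 and DNMT3B bear on the turn of these cells towards macrophages. RNA-seq was made from 4 lines. These were labelled shUHRF1, shDNMT1 and shDNMT3B, for hairpins to those 3 factors, and shNC, for the control hairpin. Each was kept for 48 h with 100 ng/ml PMA (phorbol-12-myristate-13-acetate, a phorbol ester that activates protein kinase C) or with its solvent DMSO, and each of the 8 groups held 2 libraries. Each line stands for a single hairpin construct as the labels give it, so effects of the hairpin sequence and of the target cannot be told apart. Nothing in the labels says that the 2 libraries of a group came from separate cultures, so p-values measure the spread between these libraries, which may be technical.

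Plasminogen activation starts when urokinase, the product of PLAU, cuts plasminogen to plasmin, a protease that dissolves fibrin and helps cells move through matrix. The urokinase receptor, encoded by PLAUR, holds the enzyme at the cell surface, and serpins such as SERPINB2 block it. Coagulation starts at the other end: tissue factor (F3) on a cell membrane binds factor VII, thrombin forms, and factor XIII crosslinks the fibrin. TFPI and thrombomodulin (THBD) restrain that sequence. Monocytes and macrophages carry many of these proteins and are a source of tissue factor and of the factor XIII A subunit.

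The libraries held 20384066 to 23151864 counts as replicate 1 and 13883556 to 15679327 as replicate 2. The share of mitochondrial counts with PMA was 7.71% to 19.5% in replicate 1 and 3.92% to 9.35% in replicate 2. Both upper ends were those of shDNMT3B, where shNC had 10.3% and 4.76%, and the part of this in differences between these lines was not tested. With DMSO the share was 24.4% to 29.0% in replicate 1 and 9.86% to 14.5% in replicate 2. Libraries were assigned by the description that equals the name of the count column, since the titles of 12 of the 16 samples name another condition. Those descriptions name PMA but not DMSO, and libraries without the PMA mark were taken as DMSO. MMP9, a gelatinase that macrophages make in quantity, had 4787 to 25710 CPM (counts per 1000000 of the TMM-scaled library) in the libraries labelled PMA. In those taken as DMSO it had 0.489 to 11.4 CPM. The study checked the knockdown of the 3 targets on protein by western blot, and only their RNA was seen here. As RNA, the targets of the hairpins were not lower by the test in the lines labelled with them. In DMSO the log2 fold change against shNC was -0.36 for UHRF1 (adjusted p = 0.605), -0.25 for DNMT1 (adjusted p = 0.787) and -0.48 for DNMT3B (adjusted p = 0.212). In PMA DNMT3B was higher in the libraries labelled shDNMT3B, by 1.06 (adjusted p = 0.00688, with the replicate number as a block in the fit 0.00183). UHRF1 in shUHRF1 was at 0.87 (adjusted p = 0.129, with the block 3.8e-04) and DNMT1 in shDNMT1 at 0.45 (adjusted p = 0.376, with the block 0.00418) in PMA. With the block all 3 targets were thus higher in PMA in the lines labelled with them. In DMSO the block called none of the 3. In PMA the other hairpin lines also had higher means than shNC. UHRF1 had a mean of 10.9 CPM in shUHRF1, 34.4 in shDNMT1, 30.1 in shDNMT3B and 6.03 in shNC. In the same order DNMT1 had 90.4, 91.9, 86.1 and 67.5 CPM, and DNMT3B 1.63, 2.61, 2.97 and 1.425 CPM. Every line name below is thus a label, and every direction drawn from it is that of the labelled libraries.

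On a scale divided by exon length, the 9 genes spanned several orders of magnitude. In shNC with PMA, PLAUR stood at 266.5 CPM per kb, TFPI2 at 261.3 and THBD at 103.5. PLAU followed at 11.7, and SERPINA1 (2.26), SERPINB2 (1.59), F3 (1.06) and TFPI (0.874) lay near 1 CPM per kb, with F13A1 last at 0.0252. In shNC with DMSO the order was different: THBD (11.1), PLAU (9.29) and PLAUR (8.19) led, followed by SERPINB2 (5.65), F3 (3.12) and F13A1 (1.09). SERPINA1 (0.507), TFPI (0.0609) and TFPI2 (0.0543) were lowest on this scale.

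**Figure D1:**
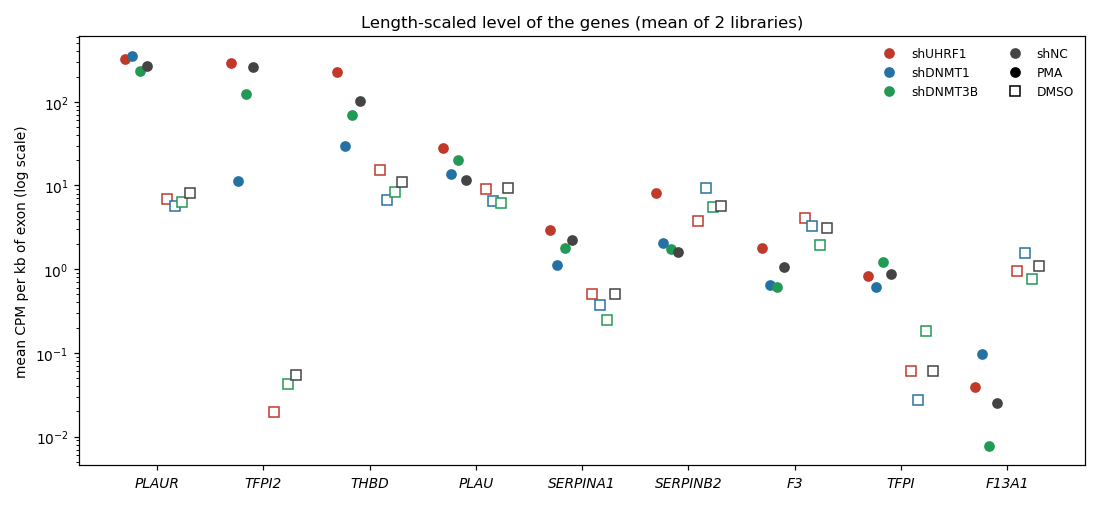
Mean CPM per kb of exon length (log axis, mean of 2 libraries) of the 9 genes, with PMA groups as filled circles and DMSO groups as open squares, coloured by line label. PLAUR, TFPI2 and THBD reach 100 CPM per kb or more in shNC with PMA, TFPI2 is lowest of all with DMSO (shDNMT1 with DMSO had no count and is not drawn), and F13A1, F3 and SERPINB2 are the genes whose shNC squares lie above their circles.

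The promoter windows of 4 of these genes are shown because they hold the letters of AP-1, the factor family that protein kinase C activation is best known for. RefSeq (GRCh38.p14) gave 10 windows for 8 of the 9 genes and none for THBD, and the 250 bases before each transcription start were searched on both strands. The AP-1 letters TGANTCA, a loose pattern in which N is any base, were found for PLAUR, SERPINB2, F3 and TFPI2. PLAUR held TGAGTCA, F3 both TGAGTCA and TGAATCA, and SERPINB2 and TFPI2 TGAATCA only. These are 4 of 8 genes, where 6.57% of all 35116 promoters of that length held TGANTCA. The first share counts genes and the second windows, and 10 windows stood for the 8 genes. The CRE letters TGACGTCA were in no window of these genes (1.65% of all promoters). The SP1 letters GGGCGG were found for 4 genes (42.6% of all), TATAAA in the windows of SERPINB2 and F3 (10.7% of all), and the NF-kB consensus in that of TFPI2 alone (5.21% of all). No 2 matches overlapped. A match describes the letters only, and none was set against binding data. Capitals mark every match to any of the 5 motifs. The windows of F3 (chr1:94541760-94542009, minus strand), TFPI2 (chr7:93890754-93891003, minus strand) and SERPINB2 (chr18:63887455-63887704, plus strand, inside the longer annotated gene span but outside its exons) touch no annotated exon of these genes, whereas that of PLAUR lies wholly in an exon of a longer transcript, so only 27 bases around its match are given (chr19:43670339-43670365, minus strand).
F3: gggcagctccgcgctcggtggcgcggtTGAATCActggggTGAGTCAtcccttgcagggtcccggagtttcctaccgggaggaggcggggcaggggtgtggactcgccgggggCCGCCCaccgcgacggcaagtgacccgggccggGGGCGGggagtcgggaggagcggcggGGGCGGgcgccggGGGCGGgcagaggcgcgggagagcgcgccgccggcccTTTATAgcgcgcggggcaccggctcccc
TFPI2: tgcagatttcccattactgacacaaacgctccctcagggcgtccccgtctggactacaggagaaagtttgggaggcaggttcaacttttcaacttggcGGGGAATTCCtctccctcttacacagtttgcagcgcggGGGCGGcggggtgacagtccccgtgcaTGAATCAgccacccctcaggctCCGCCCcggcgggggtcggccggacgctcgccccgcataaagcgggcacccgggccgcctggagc
SERPINB2: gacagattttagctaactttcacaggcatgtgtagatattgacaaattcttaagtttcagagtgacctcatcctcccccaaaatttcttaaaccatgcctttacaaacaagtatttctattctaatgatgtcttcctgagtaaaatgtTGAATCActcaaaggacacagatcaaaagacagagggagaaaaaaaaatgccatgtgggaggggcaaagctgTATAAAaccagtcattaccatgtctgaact
PLAUR: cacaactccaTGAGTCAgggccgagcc

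Counted from the transcription start, the AP-1 letters began at -223 and -210 in F3, at -87 in TFPI2, at -102 in SERPINB2 and at -186 in PLAUR. The 4 genes with the letters were not alike in their response: with PMA, PLAUR and TFPI2 were higher in every line and F3 was lower in every line, while SERPINB2 was lower in 3 lines and higher in that labelled shUHRF1. CpG dinucleotides, the sites that DNMT enzymes methylate, numbered 34 in the F3 window, 20 in TFPI2, 13 in PLAUR and 0 in SERPINB2, where the quartiles over all promoters were 3, 11 and 23.

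**Figure D2:**
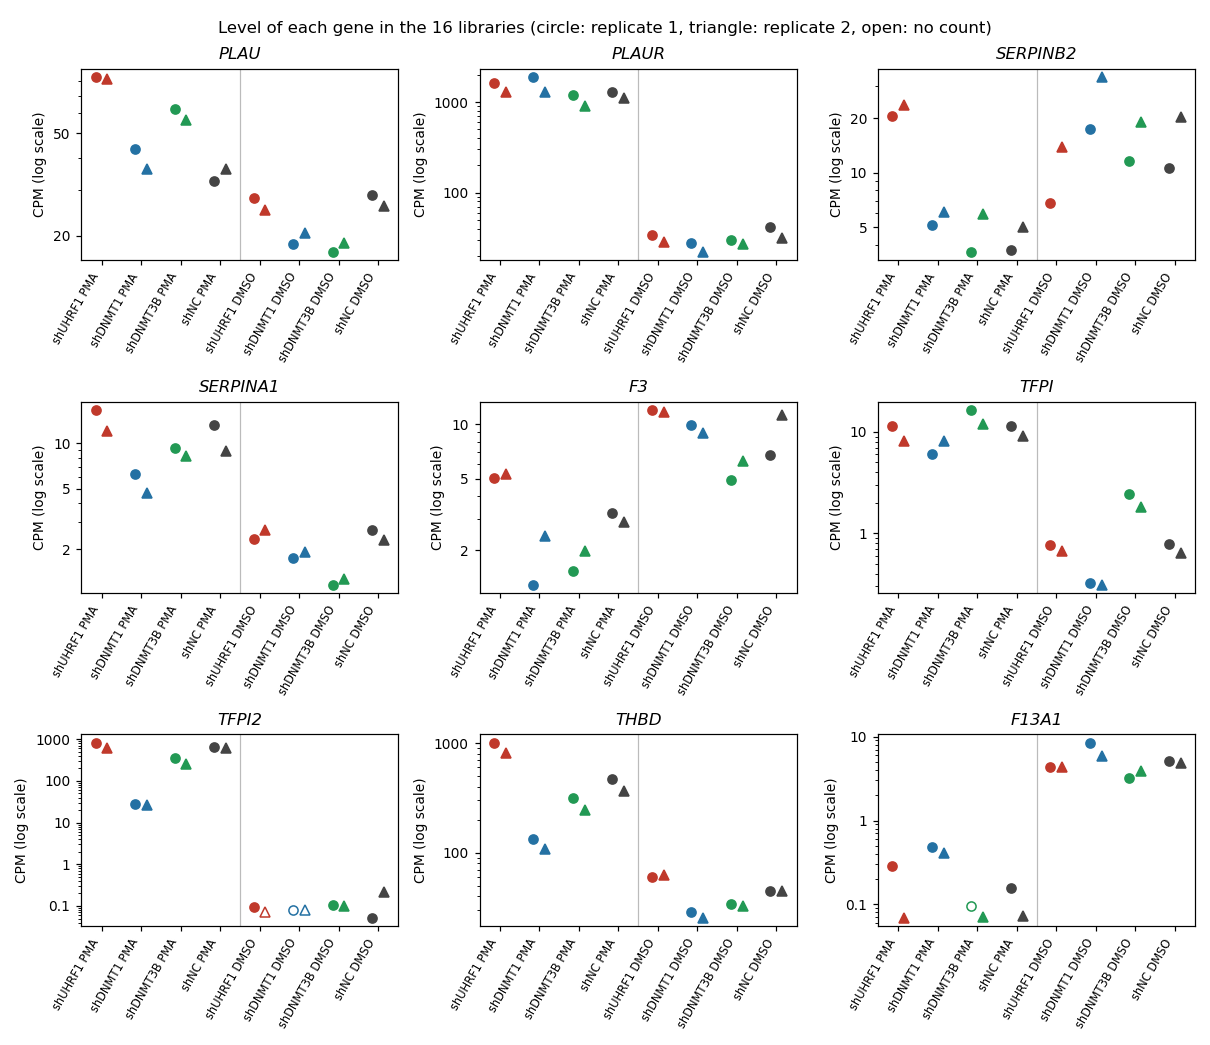
CPM (log axes that differ between panels) of each gene in each of the 16 libraries, grouped by treatment and line label, PMA groups left of the grey line and DMSO groups right of it. TFPI2 lies at 26.2 CPM or more in every PMA library and at 5 or fewer counts in every DMSO group, F13A1 runs the other way, and an open marker at the level of 3 counts over the group stands for a library with no count.

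With PMA, 8 of the 9 genes changed in shNC by edgeR's quasi-likelihood test (adjusted p under 0.05, Benjamini-Hochberg over all 16503 genes, no fold limit). The 5 that rose were PLAUR, SERPINA1, TFPI, TFPI2 and THBD, where 28.4% of all genes rose, and the 3 that fell were SERPINB2, F3 and F13A1, where 26.0% of all genes fell. In the line labelled shUHRF1, 7 rose (29.4% of all genes) and 2 fell (25.5% of all). In that labelled shDNMT1, 6 rose (28.6% of all) and 3 fell (24.1% of all), and in that labelled shDNMT3B, 6 rose (25.2% of all) and 3 fell (19.7% of all). With the replicate number as a block in the fit, PLAU was called in shNC as well, which made 6 of 9 genes that rose (34.5% of all genes). The median log2 fold change of the 9 genes was 2.16 in shNC, 2.51 in shUHRF1, 1.59 in shDNMT1 and 2.73 in shDNMT3B, against -0.005 to 0.02 over all genes tested. These medians were the same with TFPI2 at its counting ratio or bound in place of the fitted value. Upper-quartile scaling shifted the median of all genes by -0.24 to -0.31 in these 4 comparisons, and 39.7% to 42.1% of the called genes were then higher with PMA, against 52.2% to 56.1% with TMM. No member's direction turned. All 4 comparisons of PMA with DMSO used their own libraries. In bulk RNA, fewer cells of a type and less RNA per cell cannot be told apart.

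Against shNC in PMA, 3 of the 9 genes differed in each line, where 3.69% of all genes were called for shUHRF1, 14.8% for shDNMT1 and 20.3% for shDNMT3B. With the replicate block, 3, 6 and 4 genes differed, where 15.2%, 31.4% and 39.9% of all genes were called. In DMSO, edgeR called 0 of 9 genes for shUHRF1 (1.31% of all), 0 for shDNMT1 (3.96% of all) and 2 for shDNMT3B (4.51% of all). At an unadjusted p under 0.05 these counts were 1, 5 and 5, and DESeq2 called 0, 2 and 2. The block gave 2, 4 and 5 genes in DMSO, where 11.5%, 13.6% and 18.7% of all genes were called. The PMA response differed from that of shNC for 2 genes in shUHRF1 (0.848% of all), 1 in shDNMT1 (6.71% of all) and 1 in shDNMT3B (6.77% of all), and with the block for 3, 3 and 1 (8.48%, 18.6% and 19.5% of all). The 3 hairpin lines share the shNC libraries as their control, so their values against it are given side by side and not counted as separate support.

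PLAUR (ENSG00000011422, chr19:43646095-43670547, minus strand) encodes the urokinase receptor, a protein anchored to the membrane by a glycolipid. With PMA it had 1605 and 1299 CPM in shUHRF1, 1877 and 1289 CPM in shDNMT1, 1192 and 914.2 CPM in shDNMT3B and 1280 and 1096 CPM in shNC. With DMSO it had 33.6 and 28.2 CPM in shUHRF1, 27.8 and 22.2 CPM in shDNMT1, 30.2 and 26.8 CPM in shDNMT3B and 41.4 and 31.6 CPM in shNC. Every PMA library lay above every DMSO library, with the highest DMSO library at 41.4 CPM and the lowest PMA library at 914.2. The log2 fold change with PMA was 5.56 in shUHRF1 (SE 0.30), 5.98 in shDNMT1 (SE 0.30), 5.21 in shDNMT3B (SE 0.29) and 5.02 in shNC (SE 0.29, adjusted p = 1.9e-08). None of the differences from shNC passed the test in PMA or in DMSO. With the block, shDNMT1 was lower than shNC in DMSO (-0.54, adjusted p = 0.00851), higher in PMA (0.40, adjusted p = 0.0179) and had the larger PMA response (0.94, adjusted p = 6.8e-04), and the same 3 values without the block were -0.55 (adjusted p = 0.302), 0.41 (adjusted p = 0.303) and 0.96 (adjusted p = 0.139).

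PLAU (ENSG00000122861, chr10:73909177-73917496, plus strand), which encodes urokinase itself, had a PMA response that differed from that of shNC in the lines labelled shUHRF1 and shDNMT3B. In the PMA libraries PLAU had 82.8 and 81.1 CPM in shUHRF1, 43.4 and 36.4 CPM in shDNMT1, 62.5 and 56.2 CPM in shDNMT3B and 32.7 and 36.4 CPM in shNC. In the DMSO libraries it had 28.0 and 25.3 CPM in shUHRF1, 18.5 and 20.4 CPM in shDNMT1, 17.3 and 18.7 CPM in shDNMT3B and 28.7 and 26.1 CPM in shNC. The 2 libraries of a group lay close together throughout, and all 4 pairs of PMA and DMSO libraries were apart. PLAU rose with PMA by 1.62 (SE 0.15, adjusted p = 1.1e-06) in shUHRF1, by 1.04 (SE 0.15, adjusted p = 6.9e-05) in shDNMT1 and by 1.72 (SE 0.15, adjusted p = 1.1e-06) in shDNMT3B on the log2 scale. In shNC the value was 0.34 (SE 0.15, adjusted p = 0.0672, with the block 0.0265).

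In PMA, PLAU was higher than in shNC in the libraries labelled shUHRF1 (1.25, SE 0.15, adjusted p = 6.4e-04) and shDNMT3B (0.78, SE 0.15, adjusted p = 0.00256), and both calls held without any 1 of the 4 libraries. In shDNMT1 the value was 0.21 (adjusted p = 0.39). The test of the difference in response gave 1.39 for shDNMT3B (SE 0.21, adjusted p = 0.00133), called in all 8 fits that left out a library. For shUHRF1 it gave 1.29 (SE 0.21, adjusted p = 0.0127), with an adjusted p of 0.0541 without shUHRF1 replicate 1 in PMA, 0.082 and 0.0656 without shNC replicate 1 and 2 in PMA and 0.0605 without shNC replicate 1 in DMSO, and of 0.098 with only the groups compared in the fit. With the block, which the fits without a library did not hold, the adjusted p for shUHRF1 was 6.7e-05. For shDNMT1 the difference in response was 0.70 (adjusted p = 0.063, with the block 0.0091). In DMSO PLAU was lower in shDNMT3B than in shNC (-0.60, SE 0.15, adjusted p = 0.035), a call lost without any 1 of the 4 libraries (adjusted p = 0.0981 to 0.224), with no filter (0.106), with upper-quartile scaling (0.0754) and with only the groups compared (0.28). With the block the adjusted p for shDNMT3B in DMSO was 0.00248. In shDNMT1 PLAU was at -0.49 in DMSO (adjusted p = 0.0931, with the block 0.0148). C10orf55, which overlaps PLAU, had 103 counts over all libraries, against 10659 for PLAU.

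SERPINB2 (ENSG00000197632, chr18:63871692-63903888, plus strand) encodes plasminogen activator inhibitor 2, which monocytes make and largely keep inside the cell. It was the only member whose response changed direction between lines. With PMA it had 20.7 and 23.8 CPM in shUHRF1, 5.16 and 6.09 CPM in shDNMT1, 3.66 and 5.89 CPM in shDNMT3B and 3.73 and 4.98 CPM in shNC. With DMSO it had 6.83 and 13.8 CPM in shUHRF1, 17.4 and 33.7 CPM in shDNMT1, 11.6 and 19.0 CPM in shDNMT3B and 10.6 and 20.4 CPM in shNC. Among PMA libraries those labelled shUHRF1 stood alone above the other 6. SERPINB2 fell with PMA in 3 lines. The log2 fold change was -2.19 in shDNMT1 (SE 0.44, adjusted p = 0.00112) and -1.84 in shNC (SE 0.45, adjusted p = 0.00381). In shDNMT3B it was -1.69 (SE 0.45, adjusted p = 0.00783, with the block 2.4e-07). In shDNMT3B the adjusted p was 0.0807 without replicate 1 in PMA and 0.0671 without replicate 2 in DMSO.

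In shUHRF1 SERPINB2 rose with PMA by 1.11 (SE 0.42, adjusted p = 0.0402, with the block 5.8e-06). That call was lost with upper-quartile scaling (0.81, adjusted p = 0.11) and without shUHRF1 replicate 1 in PMA (adjusted p = 0.0759), replicate 2 in PMA (0.136) and replicate 1 in DMSO, where the value was 0.69 (0.273). Against shNC in PMA, SERPINB2 was higher in shUHRF1 by 2.36 (SE 0.45, adjusted p = 0.0138, with the block 2.7e-08), and the adjusted p was 0.0555 to 0.156 without any 1 of the 4 libraries. The PMA response of shUHRF1 minus that of shNC was 2.94 (SE 0.61, adjusted p = 0.0476, with the block 3.3e-07, with only the groups compared 0.12). It was called in 2 of the 8 fits without a library, those without shUHRF1 replicate 2 and without shNC replicate 1 in DMSO (adjusted p = 0.0463 and 0.0473), and gave 0.132 to 0.206 without each of the other 6. With the block, SERPINB2 in DMSO was lower in shUHRF1 than in shNC (-0.59, adjusted p = 0.0424) and higher in shDNMT1 (0.72, adjusted p = 0.0084), where the adjusted p without it was 0.609 and 0.441.

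The 2 libraries of each group differed for SERPINB2 in 1 direction. Replicate 2 was above replicate 1 in 8 of 8 groups, by a ratio of 1.15 to 2.02 (median 1.62), and no other member showed this in every group. PLAUR ran the other way, with replicate 2 below replicate 1 in all 8 groups (ratio 0.687 to 0.885). The median log2 ratio of replicate 2 to replicate 1 over all genes tested lay between 0 and 0.0253. The mitochondrial share and the depth of the libraries also differed between replicates 1 and 2, as given above, and their part in these ratios was not tested.

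**Figure D3:**
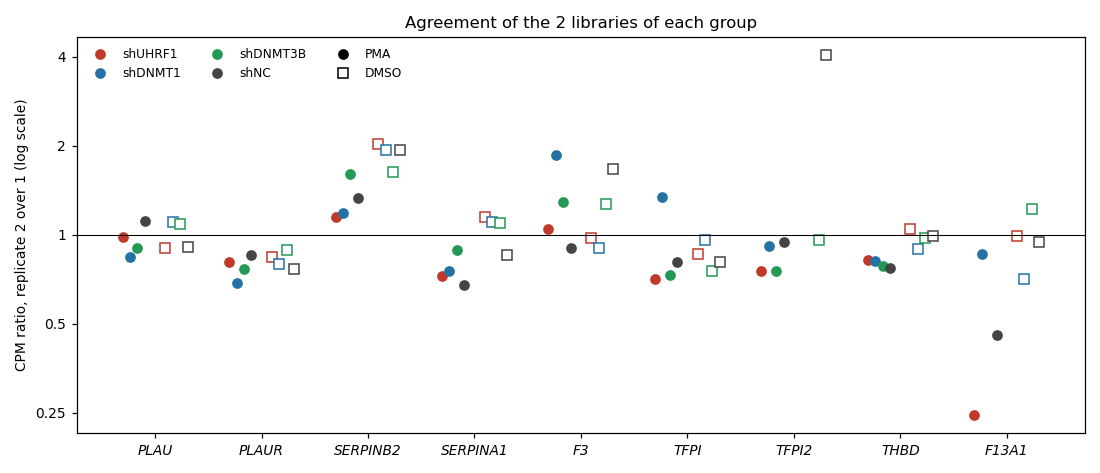
Ratio of the CPM of replicate 2 to that of replicate 1 (log axis) for each gene in each group with counts in both libraries, PMA groups as circles and DMSO groups as squares. All 8 SERPINB2 points lie above 1 and all 8 PLAUR points below it, and the widest spread is that of TFPI2 with DMSO and F13A1 with PMA, which rest on single counts.

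SERPINA1 (ENSG00000197249, chr14:94376747-94390693, minus strand) encodes alpha-1-antitrypsin, the plasma inhibitor of neutrophil elastase, made mainly in liver and also by macrophages. In the PMA libraries SERPINA1 had 16.5 and 11.96 CPM in shUHRF1, 6.26 and 4.72 CPM in shDNMT1, 9.37 and 8.30 CPM in shDNMT3B and 13.2 and 8.95 CPM in shNC. With DMSO all 8 libraries lay between 1.16 and 2.68 CPM, below every PMA library. It rose with PMA by 2.51 in shUHRF1, 1.59 in shDNMT1, 2.85 in shDNMT3B and 2.16 in shNC on the log2 scale (SE 0.26 to 0.28, adjusted p of 3.1e-04 or less). Against shNC in PMA it was lower in shDNMT1 by the test (-1.01, SE 0.25, adjusted p = 0.0162, with the block 7.7e-04). This call was lost without shDNMT1 replicate 2 (-0.82, adjusted p = 0.133) and without shNC replicate 1 (-0.70, adjusted p = 0.19), and with only the groups compared the adjusted p was 0.0599. In DMSO shDNMT3B had the lowest libraries, 1.16 and 1.27 CPM, against 2.68 and 2.29 CPM in shNC (-1.02, adjusted p = 0.0697, with the block 0.014).

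F3 (ENSG00000117525, chr1:94529173-94541759, minus strand), which encodes tissue factor, fell with PMA in all 4 lines. With PMA it had 5.04 and 5.28 CPM in shUHRF1, 1.29 and 2.395 CPM in shDNMT1, 1.54 and 1.99 CPM in shDNMT3B and 3.21 and 2.89 CPM in shNC. With DMSO it had 11.96 and 11.65 CPM in shUHRF1, 9.89 and 8.89 CPM in shDNMT1, 4.92 and 6.26 CPM in shDNMT3B and 6.73 and 11.3 CPM in shNC. Within each line the PMA libraries lay below the DMSO libraries, although the shUHRF1 libraries with PMA reached the lower shDNMT3B library with DMSO. The log2 fold change with PMA was -1.19 in shUHRF1 (SE 0.29, adjusted p = 0.00368), -2.37 in shDNMT1 (SE 0.32), -1.67 in shDNMT3B (SE 0.32) and -1.56 in shNC (SE 0.30, adjusted p = 7.7e-04). No line differed from shNC by the test, with -0.76 in shDNMT1 (adjusted p = 0.15) and -0.80 in shDNMT3B (adjusted p = 0.11) in PMA and -0.69 in shDNMT3B (adjusted p = 0.221) in DMSO. The block gave these 3 differences an adjusted p of 0.0437, 0.034 and 0.0421.

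TFPI (ENSG00000003436, chr2:187464230-187565760, minus strand) encodes the Kunitz-type inhibitor of factor Xa and of the complex of tissue factor with factor VIIa. In the PMA libraries TFPI had 11.4 and 8.06 CPM in shUHRF1, 6.07 and 8.14 CPM in shDNMT1, 16.3 and 11.98 CPM in shDNMT3B and 11.3 and 9.17 CPM in shNC. With DMSO it had 0.775 and 0.666 CPM in shUHRF1, 0.326 and 0.312 CPM in shDNMT1, 2.43 and 1.83 CPM in shDNMT3B and 0.789 and 0.638 CPM in shNC. The shDNMT3B libraries were the highest with either treatment, and the shDNMT1 libraries with DMSO were the lowest, at 6 counts each. TFPI rose with PMA by 3.75 in shUHRF1, 4.44 in shDNMT1, 2.73 in shDNMT3B and 3.83 in shNC on the log2 scale (SE 0.28 to 0.35, adjusted p of 4.6e-06 or less). In DMSO it was higher in shDNMT3B than in shNC (1.57, SE 0.32, adjusted p = 0.0151, with the block 0.00157). The adjusted p of that difference was 0.131 without shDNMT3B replicate 1 and 0.0748 and 0.136 without shNC replicate 1 and 2, and 0.191 with only the groups compared. In PMA the same difference was 0.47 (adjusted p = 0.21).

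TFPI2 (ENSG00000105825, chr7:93885396-93890753, minus strand) encodes a Kunitz-type protease inhibitor related to TFPI, which acts on plasmin and trypsin and is held in the extracellular matrix. With DMSO it was close to silent, with 2 counts over both libraries of shUHRF1, 0 of shDNMT1, 4 of shDNMT3B and 5 of shNC. With PMA it had 805.7 and 607.4 CPM in shUHRF1, 28.6 and 26.2 CPM in shDNMT1, 345.4 and 260.2 CPM in shDNMT3B and 656.6 and 620.6 CPM in shNC. From the counts of a group, PMA over DMSO was a ratio of 14900 in shUHRF1 (95% interval 4130 to 123000), 2960 in shDNMT3B (1160 to 10900) and 4850 in shNC (2080 to 14900). In shDNMT1, where DMSO had no count, TFPI2 was at least 347-fold higher with PMA, taking 3 counts summed over its DMSO libraries as the floor. The intervals cover counting error only.

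The level that TFPI2 reached with PMA was lower in shDNMT1 than in shNC by the test, at -4.54 on the log2 scale (SE 0.30, adjusted p = 3.2e-06), and this call held without any 1 of the 4 libraries. The 2 libraries labelled shDNMT1 lay far below the other 6, the next of which had 260.2 CPM. TFPI2 was also lower in shDNMT3B (-1.08, SE 0.26, adjusted p = 0.0126), which was lost without shDNMT3B replicate 2 (adjusted p = 0.116) and without shNC replicate 1 (adjusted p = 0.0677). With the block the adjusted p for shDNMT3B was 1.5e-06. For shUHRF1 the value was 0.15 (SE 0.25, adjusted p = 0.864). No fold between lines is given for DMSO, nor a difference in PMA response for shDNMT1, since these rest on 0 to 5 counts a group. GNGT1, which overlaps TFPI2, had 8 counts over all libraries, against 54771 for TFPI2.

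THBD (ENSG00000178726, chr20:23045633-23049672, minus strand, a gene of 1 exon) encodes thrombomodulin, the receptor that turns thrombin towards activation of protein C. In the PMA libraries THBD had 997.2 and 816.4 CPM in shUHRF1, 132.4 and 107.7 CPM in shDNMT1, 313.5 and 246.3 CPM in shDNMT3B and 471.1 and 364.8 CPM in shNC. In the DMSO libraries it had 60.02 and 62.6 CPM in shUHRF1, 28.8 and 25.7 CPM in shDNMT1, 34.0 and 33.0 CPM in shDNMT3B and 45.1 and 44.5 CPM in shNC. The lines stood in the same order with both treatments, shUHRF1 above shNC, then shDNMT3B, then shDNMT1, and no libraries of neighbouring groups overlapped. THBD rose with PMA by 3.89 in shUHRF1 (SE 0.21), 2.14 in shDNMT1 (SE 0.20), 3.06 in shDNMT3B (SE 0.20) and 3.22 in shNC (SE 0.20, adjusted p = 4.4e-08) on the log2 scale.

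Against shNC in PMA, THBD was lower in shDNMT1 (-1.80, SE 0.19, adjusted p = 6.0e-05), a call that held without any 1 of the 4 libraries. It was higher in shUHRF1 (1.12, SE 0.19, adjusted p = 0.00711), with an adjusted p of 0.0612 without shUHRF1 replicate 1 and 0.104 without shNC replicate 2, and of 0.0719 with only the groups compared. It was lower in shDNMT3B (-0.58, SE 0.19, adjusted p = 0.0466), lost without any 1 of the 4 libraries (adjusted p = 0.0534 to 0.305), with no filter (adjusted p = 0.0826), with upper-quartile scaling (0.117) and with only the groups compared (0.0783). The PMA response of shDNMT1 was smaller than that of shNC, by -1.08 (SE 0.27, adjusted p = 0.03), which was called without shDNMT1 replicate 1 or shNC replicate 2 in PMA (adjusted p = 0.0415 and 0.0332) and gave 0.0643 to 0.139 without each of the other 6 libraries and 0.0671 with only the groups compared. In shUHRF1 the response differed by 0.66 (adjusted p = 0.334, with the block 0.0233). With the block, which the fits without a library did not hold, the adjusted p in PMA was 1.2e-06 for shUHRF1 and 8.2e-04 for shDNMT3B. For the difference in response of shDNMT1 it was 1.6e-04. In DMSO the differences from shNC were 0.45 in shUHRF1 (adjusted p = 0.312), -0.72 in shDNMT1 (0.0609) and -0.42 in shDNMT3B (0.272). The block gave these 0.0256, 6.0e-04 and 0.0299.

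F13A1 (ENSG00000124491, chr6:6144084-6321013, minus strand) encodes the A subunit of factor XIII, the transglutaminase that crosslinks fibrin and a gene of monocytes, macrophages and platelets. With PMA it had 6 counts over the group in shUHRF1, 16 in shDNMT1, 1 in shDNMT3B and 4 in shNC. With DMSO it had 4.41 and 4.38 CPM in shUHRF1, 8.36 and 5.93 CPM in shDNMT1, 3.17 and 3.87 CPM in shDNMT3B and 5.10 and 4.84 CPM in shNC. F13A1 fell with PMA in every line, to 0.478 CPM or less in every PMA library. The log2 fold change with PMA was -4.52 in shUHRF1 (SE 0.48), -3.97 in shDNMT1 (SE 0.41) and -5.28 in shNC (SE 0.51, adjusted p = 1.9e-06). In shDNMT3B, with 1 count, the ratio of PMA to DMSO was 0.00897 (95% counting interval 0.000225 to 0.0508). In PMA the ratio of shDNMT1 to shNC was 3.70 from the counts (interval 1.19 to 15.2) and the test gave an adjusted p of 0.076, with the block 0.0488.

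**Figure D4:**
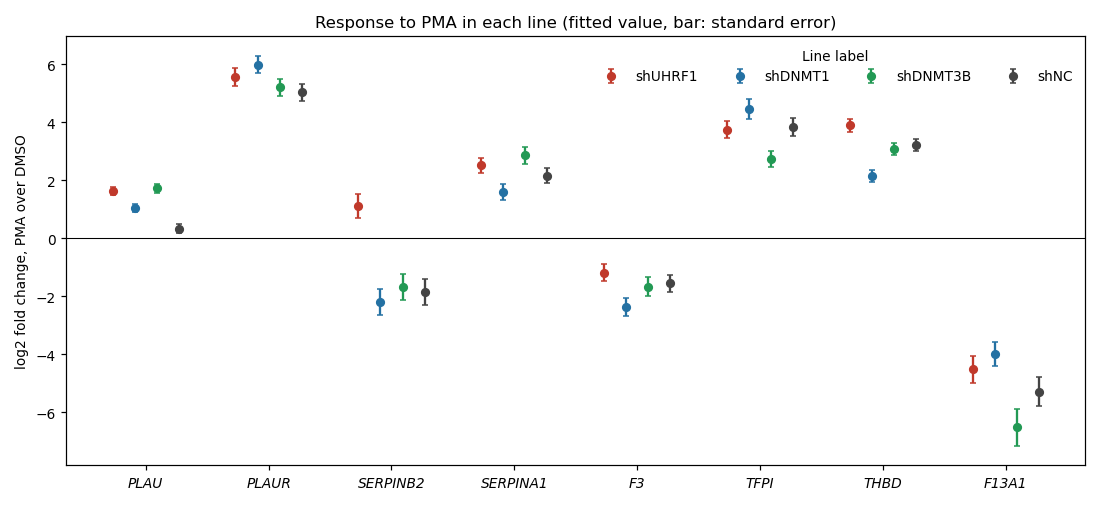
Fitted log2 fold change of PMA over DMSO with its standard error for 8 of the genes in each line. TFPI2 is left out because its DMSO groups hold 0 to 5 counts. SERPINB2 lies above 0 in the line labelled shUHRF1 (1.11) and below 0 in the other 3, and PLAU lies lowest in shNC (0.34).

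**Figure D5:**
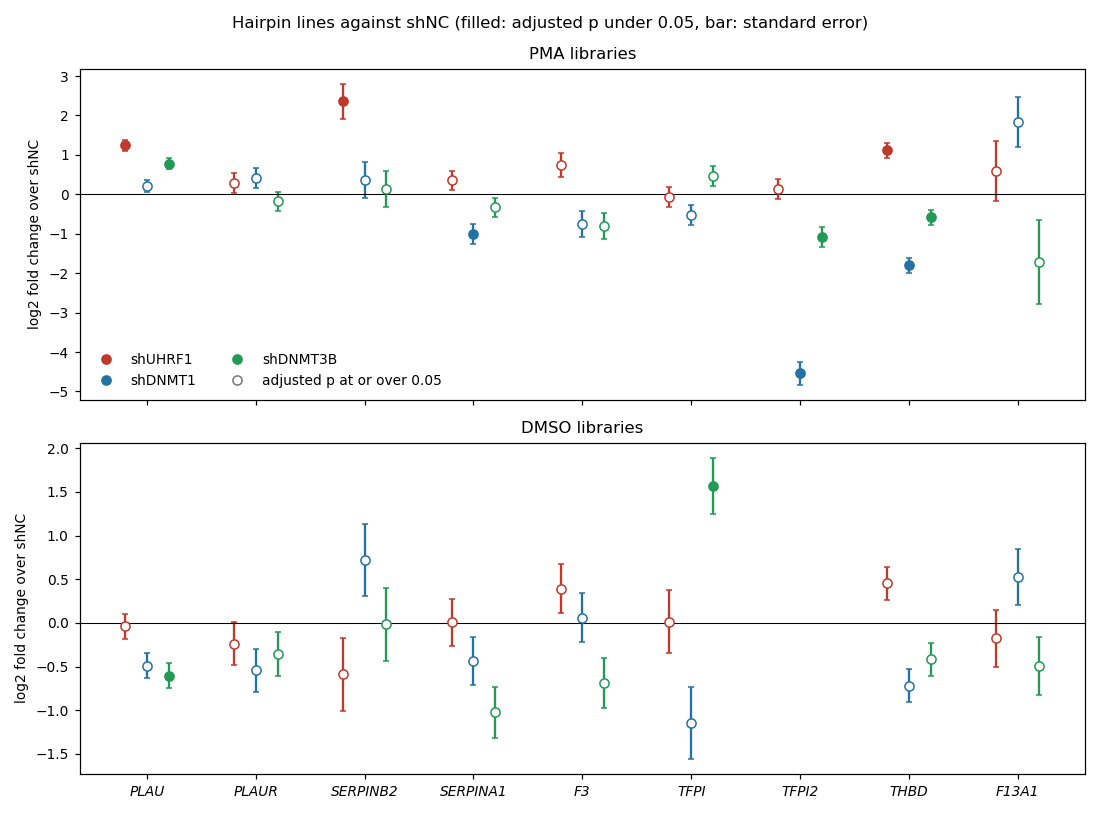
Fitted log2 fold change of each hairpin line over shNC with its standard error, in PMA libraries (upper panel) and DMSO libraries (lower panel), with filled points at an adjusted p under 0.05 (TFPI2 not drawn for DMSO). In PMA the farthest point is TFPI2 in shDNMT1 at -4.54, and in DMSO the filled points are PLAU (-0.60) and TFPI (1.57) in shDNMT3B.

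Leaving TFPI2 out, the median difference of the other 8 genes from shNC in PMA was 0.67 in shUHRF1, -0.16 in shDNMT1 and -0.25 in shDNMT3B, against 0.02, 0.01 and 0.04 over all genes tested. In shUHRF1, 7 of the 8 values were above 0. In DMSO the medians were -0.02, -0.46 and -0.46, against -0.04, -0.04 and -0.02 over all genes, and 7 of the 8 values in shDNMT3B were below 0. Upper-quartile scaling raised the median of all genes for shDNMT3B by 0.13 in PMA and 0.08 in DMSO. The share of called genes that were higher was then 69.6% in PMA and 48.3% in DMSO, against 55.5% and 35.9% with TMM.

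Other genes of the plasminogen system were mostly higher with PMA. Of 19 listed, 15 were tested. In shNC 9 rose and 2 fell (median 1.56, against -0.005 over all genes), where 28.4% of all genes rose and 26.0% fell. In the hairpin lines 9 or 10 of the 15 rose, where 25.2% to 29.4% of all genes rose. In shNC A2M, a broad protease trap, rose by 7.89 (SE 0.40), LRP1, an endocytic receptor that clears proteases from the cell surface, by 4.31 (SE 0.41), and SERPING1, the C1 inhibitor, by 3.90 (SE 0.30). Against shNC in PMA, SERPING1 was higher by 1.13 in shDNMT1 (adjusted p = 0.0087) and 1.81 in shDNMT3B (adjusted p = 3.5e-04). ST14, a membrane serine protease, was higher in all 3 hairpin lines (0.72 in shUHRF1, 0.95 in shDNMT1 and 0.82 in shDNMT3B). In DMSO both were lower in shDNMT1 than in shNC. ST14 was at -0.78 (adjusted p = 0.0188), and SERPING1 had 0 and 0.208 CPM, against 1.05 and 1.33 CPM in shNC (adjusted p = 0.00262). In all, 1 of the 15 genes differed from shNC with PMA in shUHRF1, 4 in shDNMT1 and 5 in shDNMT3B, where 3.69%, 14.8% and 20.3% of all genes were called. With the block these counts were 6, 7 and 12 (15.2%, 31.4% and 39.9% of all genes), and LRP1 in shUHRF1 was among those gained (1.09, adjusted p = 0.121, with the block 3.6e-06).

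Of 21 other genes of the coagulation cascade, 6 had no count in any library and 10 were tested. In shNC 4 rose with PMA (28.4% of all genes) and 1 fell (26.0% of all), with a median of 0.46. In the hairpin lines 4 or 5 rose (25.2% to 29.4% of all). TGM2, tissue transglutaminase, rose by 6.06 (SE 0.35), and MCFD2, which carries factors V and VIII through the secretory pathway, by 1.48 (SE 0.17). VWF, the platelet adhesion protein, had 17.8 and 17.6 CPM in shNC with PMA, against 0.0526 and 0.0532 CPM with DMSO. F12 fell by 2.92 in shNC (SE 0.78, adjusted p = 0.00658) from a low and uneven level. It had 0.368 and 0.144 CPM with PMA, against 3.37 and 0.797 CPM with DMSO. VWF with PMA was lower than in shNC in shUHRF1 (-1.67, adjusted p = 0.00797) and shDNMT3B (-1.39, adjusted p = 0.00467). It was the only gene of these 10 called for shUHRF1 (3.69% of all genes), and with TGM2 (-0.99) 1 of the 2 called for shDNMT3B (20.3% of all), and none was called for shDNMT1 (14.8% of all). With the block 3 were called for shUHRF1 (15.2% of all genes), 2 for shDNMT1 (31.4% of all) and 3 for shDNMT3B (39.9% of all). In shUHRF1 the block added TGM2 (0.95, adjusted p = 0.0655, with the block 6.1e-05) and LMAN1, which works with MCFD2 (0.55, adjusted p = 0.295, with the block 0.00779), and in shDNMT3B it added MCFD2 (-0.45, adjusted p = 0.0792, with the block 0.00772).

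Of 15 other anticoagulants and thrombin receptors, 10 were tested. In shNC 4 rose with PMA (28.4% of all genes) and 3 fell (26.0% of all), with a median of 0.29. PROC, the gene of protein C, which thrombomodulin helps to activate, had 31.2 and 31.5 CPM with PMA, against 0.0526 and 0.0532 CPM with DMSO. ANXA5, a protein that covers phosphatidylserine, rose by 2.55 (SE 0.30). GAS6, a vitamin K-dependent ligand of the TAM receptors, fell by 3.85 (SE 0.22), to 16.8 and 16.8 CPM with PMA, against 240.8 and 242.0 CPM with DMSO. Among PMA libraries GAS6 was higher than in shNC in shDNMT1 (2.11, adjusted p = 2.4e-05) and shDNMT3B (1.34, adjusted p = 5.7e-04). F2R, the main thrombin receptor, was higher in all 3 hairpin lines (1.90 in shUHRF1, 1.58 in shDNMT1 and 2.66 in shDNMT3B), where shNC had 0.631 and 0.794 CPM. Of the 10 genes, 2 differed from shNC in PMA in shUHRF1 (1 higher, 1 lower), 7 in shDNMT1 (4 higher, 3 lower) and 4 in shDNMT3B (2 higher, 2 lower), where 3.69%, 14.8% and 20.3% of all genes were called. With the block 5, 7 and 7 differed, where 15.2%, 31.4% and 39.9% of all genes were called.

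Of the 16 serpin genes that lie beside SERPINB2 or SERPINA1, 7 had no count and 2 were tested. SERPINB10 fell with PMA to no count in shNC, against 7.05 and 6.91 CPM with DMSO, and SERPINB8 had 50.03 and 48.4 CPM with PMA, against 47.3 and 46.2 CPM with DMSO (0.07, adjusted p = 0.689). Of 24 response genes of protein kinase C, AP-1 and NF-kB, 23 rose with PMA in shNC (median 3.67), where 28.4% of all genes rose. The 4 with the smallest adjusted p were EGR2 (10.55), PHLDA1 (8.86), DUSP1 (7.48) and DUSP4 (4.19). Against shNC in PMA, 12 of the 24 were lower in shDNMT1, 8 in shDNMT3B and 3 in shUHRF1, with medians of -0.68, -0.53 and -0.21, and none was higher. In these comparisons 14.8%, 20.3% and 3.69% of all genes were called in either direction. With the block 21, 16 and 9 of the 24 were lower and 1, 1 and 3 higher. The block called 31.4%, 39.9% and 15.2% of all genes in either direction. FOSB, a subunit of AP-1, was lower in all 3 (-1.42 in shUHRF1, -3.21 in shDNMT1 and -2.06 in shDNMT3B).

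The markers of monocytes and macrophages summed to 7120 to 28400 CPM in the PMA libraries and 495 to 679 CPM in the DMSO libraries, and all 8 reached 1 CPM with both treatments. MMP9 carried most of the PMA sum, with a mean of 12600 CPM. The list did not move as a whole: LYZ (lysozyme) had a median of 30.9 CPM with PMA and 79.6 CPM with DMSO, and FCGR1A (CD64) 39.6 CPM with PMA and 99.0 CPM with DMSO, where LYZ libraries of the treatments did not overlap and those of FCGR1A did. The 8 endothelial markers, which matter here since THBD and TFPI are endothelial genes, summed to 12.6 to 33.8 CPM with PMA and 0.37 to 1.22 CPM with DMSO. VWF led with a mean of 12.5 CPM in PMA. TIE1 had 5.7 to 13.6 CPM with PMA and at most 0.052 CPM with DMSO. CDH5 had no count in any library and EMCN none with PMA. Liver markers, set beside SERPINA1, summed to 1.25 to 5.02 CPM with PMA and 5.0 to 9.73 CPM with DMSO. HP carried most of the DMSO sum, with a mean of 5.88 CPM, and had at most 0.263 CPM with PMA. FGA and FGB had no count in any library. Megakaryocyte and platelet markers, set beside F13A1, summed to 4.84 to 15.1 CPM with PMA and 5.95 to 20.7 CPM with DMSO. With each treatment 2 of 8 reached a mean of 1 CPM. PPBP had a median of 5.74 CPM with PMA and 0 CPM with DMSO, and GP1BB 1.74 CPM with PMA and 8.63 CPM with DMSO. Stromal markers summed to 37.3 to 99.7 CPM with PMA and 2.77 to 7.53 CPM with DMSO, with FAP the highest. Red cell markers summed to at most 0.34 CPM with PMA and reached 490 CPM with DMSO, in shNC replicate 1, where HBB led. The part of these markers in the member values was not tested.

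The gene whose log2 CPM ran closest to each member over the 16 libraries was found by Pearson's r, as a description over libraries that share 2 treatments and 4 lines. For TFPI2 these were CCL4L2 (r = 0.996), IL1B (0.995) and CXCL8 (0.994), and for PLAUR TM4SF19 (0.997), RHBDF2 (0.997) and IL1RN (0.996). THBD ran closest with AREL1 (0.980), CD59 (0.977) and UBE2D3 (0.976), and SERPINA1 with GLIPR1, TSPYL5 and GTF2E2 (0.977 each). TFPI ran closest with CREM (0.982), FTH1P10 (0.981) and CFAP58 (0.981), and F3 with FBN2 (0.945), CACNA2D3 (0.945) and SLBP (0.938). For PLAU the 3 genes were ATP8B1 (0.932), LPAR1 (0.930) and SLC9A9 (0.930), and for F13A1 the named ones were ORC5 (0.988) and RET (0.986). SERPINB2, with its split by line, had the lowest values, PMM1 at 0.857 and PYCR3 at 0.824. Among the members themselves, THBD and SERPINA1 had the highest r (0.970) and TFPI2 and F13A1 the lowest (-0.973).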

How the data were processed

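RNA-seq counts of 16 THP-1 libraries were used. Per the labels and the study's methods, reads were aligned with STAR 2.4.0b to hg38 and counted with HTSeq 0.6.1p1, and the deposited counts are whole numbers of reads per gene, not normalized. Whether counting used strand is not given in the sources used here. Gene names came from GENCODE 44, which named 60357 of the 60676 genes.

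Genes were filtered with filterByExpr (minimum count 10, minimum total 15), scaled by TMM and tested with edgeR 4.0.16 (R 4.3.3) by the quasi-likelihood test in 1 fit of 8 groups with 8 residual degrees of freedom, adjusted by Benjamini-Hochberg over 16503 genes. There were 13 comparisons: PMA against DMSO in 4 lines, 3 hairpin lines against shNC in each treatment, and 3 differences in response. Calls needed an adjusted p below 0.05, and the standard error is the size of the log2 fold change over the root of F. Samples with the same replicate number deviated together (r = 0.22 to 0.51 over all 28 pairs of groups), so the replicate number was taken to pair them. The value of a fit with the replicate number as a block is given where it changed the call of a member or of a hairpin target. It is also given where a member's call was lost without a library, and as counts for the gene lists given against shNC in PMA. The fits without a library did not hold the block. Alternatives were DESeq2 1.42.0, RLE and upper-quartile factors, no filter, only the groups compared, a log2 fold limit of 1 and leaving out each library. Count ratios have exact 95% intervals, and the floor is 3 counts over a group.

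The 9 genes and the gene lists were chosen with earlier results of these data known. All 9 are named whatever their values. Of each list, up to 4 genes with the smallest adjusted p for PMA in shNC and up to 2 of each other comparison were named by rule, and further lines' values of genes so named were added after they were seen, with the 3 genes most like each member (log2 CPM, prior count 2). Differences named as changes of direction are those where either fit was called. Promoters came from the RefSeq table of GRCh38.p14. The values of 1 listed gene are not reported here.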

Additional observations from a re-analysis of the deposited data

Results flagged for a closer look

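The response of PLAU to PMA, as log2 fold change over DMSO, was larger than that of shNC by 1.29 in the line labelled shUHRF1 and by 1.39 in that labelled shDNMT3B, both by the test of the difference itself (edgeR quasi-likelihood test, adjusted p = 0.0127 and 0.00133). PLAU was higher in both shUHRF1 libraries and both shDNMT3B libraries with PMA than in either shNC library. The call for shUHRF1 was lost in some fits without a library and with only the groups compared, while that for shDNMT3B held in these fits. With the replicate block, which these fits did not hold, the adjusted p was 6.7e-05 for shUHRF1 and 6.0e-06 for shDNMT3B.

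SERPINB2 responded to PMA in opposite directions, with a difference in response of 2.94 between shUHRF1 and shNC (adjusted p = 0.0476). Both shUHRF1 libraries were higher with PMA than with DMSO and both shNC libraries were lower. The call of the difference was lost in most fits without a library and with only the groups compared. With the replicate block, which these fits did not hold, its adjusted p was 3.3e-07.

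The response of THBD in shDNMT1 differed from that in shNC by -1.08 (adjusted p = 0.03), a call lost in most fits without a library and with only the groups compared. With the replicate block, which these fits did not hold, its adjusted p was 1.6e-04. THBD was higher with PMA in all libraries of both lines, and the 2 shDNMT1 libraries with PMA had 132.4 and 107.7 CPM, against 471.1 and 364.8 CPM in shNC.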

How the results depend on the processing

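The direction of no called value turned under any alternative. Of 564 member values without a library, 522 kept their side of the threshold and 42 lost their call. DESeq2 added 3 calls among 114 values and RLE factors changed none of 114, while no filter lost 2 of 114, upper-quartile factors 3 of 114 and fits of only the groups compared 8 of 111. The replicate block changed 17 of 114, all gains, and changed no other call of a member.

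The larger moves in the counts of called genes are given here. Smaller ones are not all listed, such as 2 in place of 3 for each hairpin line in PMA with only the groups compared. For shUHRF1 in DMSO the replicate block gave 2 in place of 0. For shDNMT1 in DMSO DESeq2 gave 2 and the block 4 in place of 0. For shDNMT3B in DMSO, 2 genes were called and no filter gave 1, upper-quartile factors 1, the fold limit 1, only the groups compared 0 and the block 5. In PMA the block gave 6 in place of 3 for shDNMT1 and the fold limit 1 in place of 3 for shDNMT3B. For the difference in response, fits of only the groups compared gave 0 in place of 2 for shUHRF1 and 0 in place of 1 for shDNMT1, where DESeq2 gave 2 and the block 3. Leaving out 1 library gave 0 to 1 genes for shDNMT3B in DMSO, 1 to 2 for shUHRF1, 2 to 3 for shDNMT1 and 1 to 2 for shDNMT3B in PMA, 0 to 2 for the response of shUHRF1 and 0 to 1 for that of shDNMT1. The cause of these moves was not tested, and a fit of fewer libraries also has fewer degrees of freedom. F13A1 with PMA and TFPI2 with DMSO rest on 0 to 16 counts a group, which limits any comparison of them there.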
